A study of Mus musculus with 84 samples.

Results

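The 39 genes described here form the cytosolic heat shock and chaperone network of the mouse. They were taken by gene symbol from a table of fragment counts for 49671 genes in 84 RNA sequencing libraries, and each of the 39 symbols matched 1 row. The members are 2 heat shock factors (Hsf1 and Hsf2), 8 genes of the HSP110 and HSP70 family (Hsph1, Hspa8, Hspa1a, Hspa1b, Hspa2, Hspa4, Hspa4l and Hspa9), 2 HSP90 genes (Hsp90aa1 and Hsp90ab1), 4 small heat shock proteins (Hspb1, Hspb6, Hspb8 and Cryab), 6 DNAJ proteins (Dnajb1, Dnajb4, Dnajb6, Dnaja1, Dnaja2 and Dnajc7), 9 co-chaperones (Bag3, Stip1, Fkbp4, Chordc1, Ahsa1, Cacybp, Ptges3, Cdc37 and St13) and 6 subunits of the CCT ring (Tcp1, Cct2, Cct3, Cct4, Cct5 and Cct8). Hspd1 and Hspe1, the mitochondrial chaperonin, and Hspa9, the mitochondrial HSP70, stand on the same list although their proteins work in mitochondria.

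The libraries came from 12 mice, 7 tissues each, in 4 groups of 3. These were ob/ob mice on a normal diet (ND), WT mice on ND, ob/ob mice on a high-fat diet (HFD) and WT mice on HFD. The ob/ob strain carries a nonsense mutation in Lep, lacks working leptin throughout the body and becomes obese on ordinary chow, so leptin and body weight cannot be told apart in a comparison of genotypes. Tissues were hypothalamus, hippocampus, epididymal fat, liver, aorta, skeletal muscle and heart, all taken at 20 weeks, a time that the labels do not assign to age or to feeding. Sex, the strain of the WT mice and a breeding scheme are not given in the sources used here, and the 7 tissues of a mouse share that mouse.

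Heat shock factor 1, encoded by Hsf1, is the main transcription factor of the response to unfolded protein in the cytosol. It binds heat shock elements, inverted repeats of the unit nGAAn, in the promoters of chaperone genes. HSP70 proteins fold clients in cycles of ATP hydrolysis that DNAJ proteins start and HSP110 and BAG proteins reset by exchanging the nucleotide. HSP90 takes over folding intermediates of kinases and steroid receptors with the help of co-chaperones such as Stip1, which links it to HSP70, Ahsa1, which speeds its ATPase, and Ptges3 (p23), which stabilises its closed form. Small heat shock proteins hold unfolded proteins without ATP, and the CCT ring folds actin and tubulin.

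Depth was 10499528 to 17040790 counts per library, and the members took 0.473% to 0.996% of them. All values below are CPM, counts scaled to a common library size by TMM within a tissue, unless TPM is named. TPM divides each count by the gene length, that of all its exons, and scales to the library total. Fold changes are log2 values with their standard error, from edgeR's quasi-likelihood test over the 12 libraries of a tissue, with Benjamini-Hochberg adjustment over all genes tested there and a threshold of 0.05. Liver libraries held 66130 to 115600 CPM summed over 6 hepatocyte markers, heart libraries 19740 to 28540 CPM over 6 cardiomyocyte markers, and hypothalamus libraries 202 to 626 CPM over 5 hypothalamic peptide genes, against 1.46 to 18.1 CPM in hippocampus libraries. Libraries labelled aorta held 251 to 1277 CPM over 5 smooth muscle markers, 15730 to 28990 CPM over 7 adipocyte markers and 5733 to 14900 CPM over 4 brown fat markers, so their tissue was not vessel wall alone. Skeletal muscle libraries varied most, with 5139 to 253100 CPM summed over 7 fibre markers. In bulk tissue, fewer cells of a type and less RNA per cell cannot be told apart.

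Members were lower in ob/ob tissue more often than higher. Over 7 tissues and 2 diets, 544 tests of a member were possible, since Hspa1a was too low to be tested in liver. Of these, 132 (24.3%) showed a fall in ob/ob mice and 35 (6.43%) a rise, where 8.46% of all genes tested in the same 14 comparisons were lower and 9.40% higher. Each member passed the test in at least 1 comparison. Where they passed it, 21 members fell only, 5 rose only (Bag3, Dnajb4, Dnajb6, Cct2 and Hspa9) and 13 did both. The matching shares of all genes were not counted. In each of aorta, fat, liver and muscle on ND, 31.7% to 48.2% of all genes were called. That each member passed once, and this division, are therefore no result about the members. By role, co-chaperones fell in 43 of 126 tests and rose in 7, HSP110 and HSP70 genes fell in 33 of 110 and rose in 5, and HSP90 genes fell in 8 of 28 and rose in 1. DNAJ genes fell in 14 of 84 tests and rose in 11, small heat shock proteins fell in 7 of 56 and rose in 6, and CCT subunits fell in 13 of 84 and rose in 1.

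**Figure D1:**
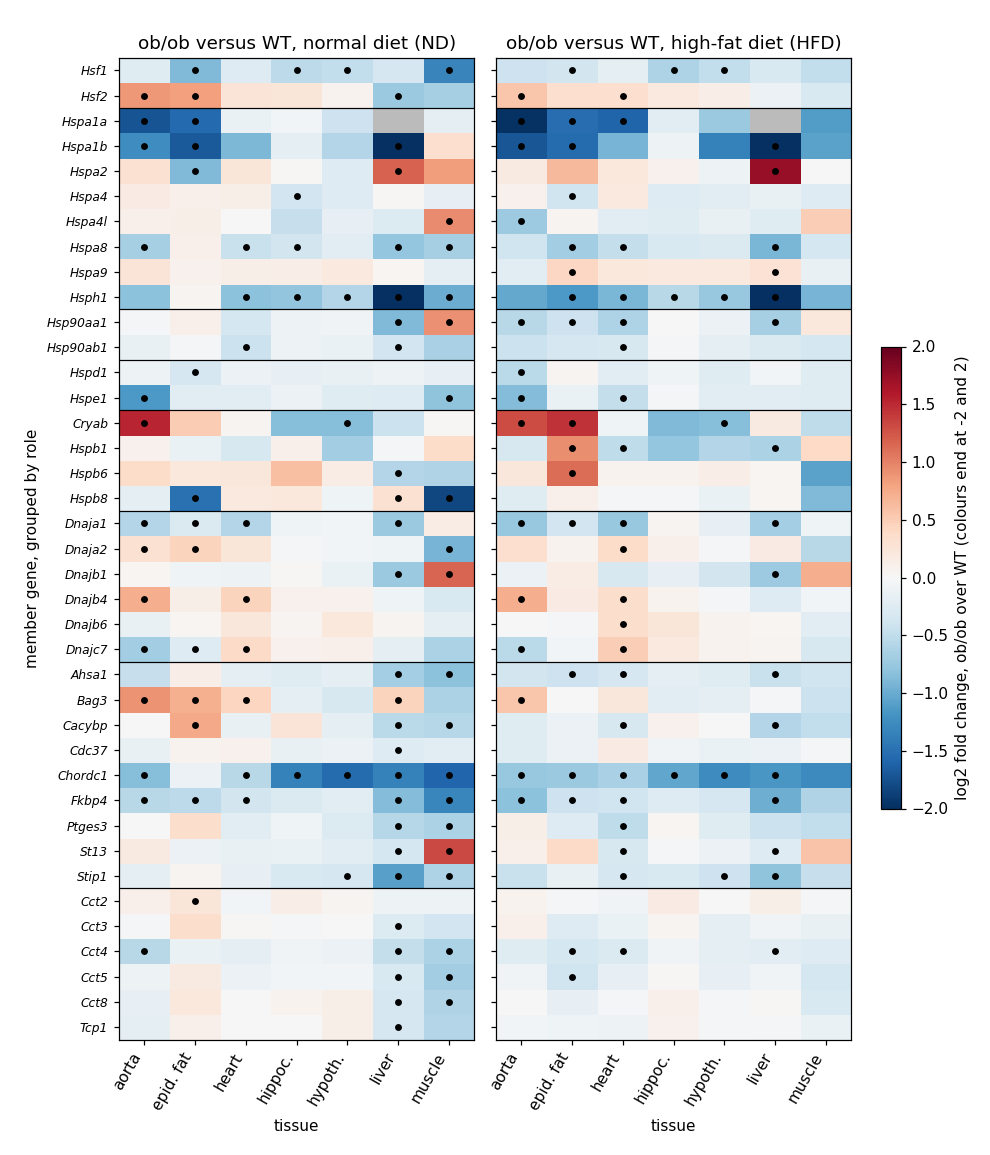
Log2 fold change of each of the 39 members in ob/ob over WT mice, by tissue, on ND (left) and on HFD (right), 3 mice a group. Blue is lower and red higher in ob/ob, colours end at -2 and 2, a black dot marks an edgeR adjusted p under 0.05, and grey marks the member not tested. Chordc1, Hsph1, Fkbp4 and Hsf1 run blue across most tissues, while Bag3 and Dnajb4 are red in aorta and heart on ND.

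The share of members that changed differed by tissue, and so did the share of all genes. In liver on ND, 3 of 38 members rose in ob/ob mice and 22 fell, against a background of 19.3% of all tested genes higher and 17.1% lower. In liver on HFD, 2 rose and 14 fell, beside 8.61% of all genes higher and 9.85% lower. The liver members had a median log2 value of -0.34 on ND and -0.22 on HFD, beside 0.02 and 0.01 for all genes tested. In heart on HFD, 5 of 39 members rose and 16 fell, beside 8.82% of all genes higher and 8.36% lower. On ND, 3 heart members rose and 6 fell, beside 6.26% and 6.48% of all genes. Leaving out WT HFD replicate 2 or ob/ob HFD replicate 2 cut the heart count on HFD to 12, and leaving out ob/ob HFD replicate 3 cut it to 13.

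In both brain regions no member rose. In hypothalamus 5 fell on ND and 5 on HFD, beside 2.98% and 1.28% of all genes lower, and 2.32% and 0.853% higher. In hippocampus 5 fell on ND and 3 on HFD, beside 1.85% and 0.911% of all genes lower, and 1.63% and 0.648% higher (3.48% and 1.56% in either direction). These counts were sensitive to single libraries. Leaving out any 1 of WT ND replicates 1, 2 and 3 and ob/ob ND replicates 1 and 3 left 2 of the 5 calls in hippocampus on ND. On HFD none was left there without WT HFD replicate 2 or ob/ob HFD replicate 1, and 1 without ob/ob HFD replicate 2. In hypothalamus the ND count was 10 without WT ND replicate 1 and 3 without ob/ob ND replicate 1 or 2. On HFD it was 13 without WT ND replicate 1, and 3 without any 1 of WT HFD replicates 1, 2 and 3 and ob/ob HFD replicates 1 and 3.

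In aorta 5 members rose and 9 fell on ND, beside 31.7% of all genes called, 15.9% higher and 15.9% lower. On HFD 4 aorta members rose and 10 fell, beside 8.34% higher and 7.84% lower. In epididymal fat 5 rose and 9 fell on ND, where 48.2% of all genes were called, 25.2% higher and 23% lower, so these counts are no result about the members. On HFD 4 fat members rose and 13 fell, beside 10.1% higher and 7.5% lower. The total of 14 in aorta was 9 on ND without ob/ob ND replicate 3, and 9 on HFD without any 1 of WT HFD replicates 1, 2 and 3 and ob/ob HFD replicate 2. The total of 17 in fat on HFD was 8 without WT HFD replicate 2, 4 without ob/ob HFD replicate 1 and 11 without ob/ob HFD replicate 3.

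In skeletal muscle on ND 4 members rose and 15 fell, beside 26.6% of all genes higher and 18.3% lower. The total of 19 was 9 without WT ND replicate 1, 6 without ob/ob ND replicate 1 and 7 without ob/ob ND replicate 3. The 7 fibre markers summed to 28110 to 64510 CPM in ob/ob and 114900 to 253100 CPM in WT muscle on ND, and 0 of the 7 passed the test by edgeR on either diet. The 7 adipocyte markers summed to 10920 to 14680 CPM in ob/ob and 525 to 2752 CPM in WT muscle on ND, where 6 rose. The 7 macrophage markers summed to 1400 to 1927 CPM in ob/ob and 203 to 381 CPM in WT, and all 7 rose; the part of these cells in the muscle values was not tested. On HFD, with 5139 to 130500 CPM of fibre markers in ob/ob and 93680 to 116700 CPM in WT muscle, no member passed edgeR's test, 5 had an unadjusted p under 0.05 and DESeq2 called 2, beside 0.0194% of all genes. Without ob/ob HFD replicate 1 that count was 18, with 3 higher and 15 lower.

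Part of the direction depends on the scaling. TMM centres the fold changes of most genes. Relative to it, scaling to the library total moved the median of all genes by 0.56 in muscle on ND, 0.28 in muscle on HFD, 0.18 in liver on ND, 0.11 in liver on HFD and -0.11 in heart on ND, on the log2 scale. For diet in WT mice the shift was -0.15 in aorta, 0.16 in liver and 0.22 in muscle, and for the interaction it was 0.12 in aorta and -0.28 in muscle. Scaled to totals, muscle members on ND divided into 9 that rose and 5 that fell, and liver members on ND into 5 and 14. The division was 5 and 7 in aorta on HFD, 8 and 8 in fat on ND, 1 and 12 in heart on ND and 2 and 16 in heart on HFD. No member called on TMM took the opposite sign under this scaling. On ND, however, 10 of the 19 calls in muscle and 8 of the 25 in liver were lost. In muscle on ND, 2 members not called on TMM changed sign and passed as higher in ob/ob. Cct2 went from -0.10 to 0.46 and Dnajb6 from -0.18 to 0.37.

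**Figure D2:**
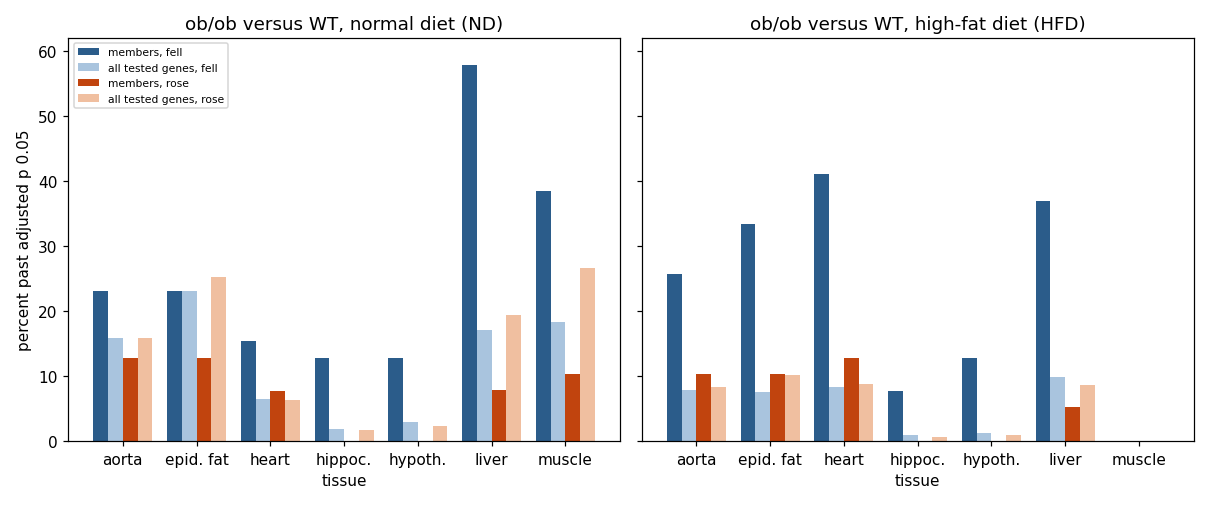
Percent of members, and of all genes tested in the tissue, that fell or rose in ob/ob over WT mice past an edgeR adjusted p of 0.05, on ND (left) and HFD (right). The bars for members that fell stand above those for all genes that fell in each tissue except epididymal fat on ND, where both are nearly level, and muscle on HFD, where both are at 0.

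Hsf1 was lower in ob/ob than in WT mice in each of the 14 comparisons, and 7 of them passed the test. In epididymal fat on ND, Hsf1 stood at 15.6, 16.3 and 16.4 CPM in ob/ob mice, against 32.8, 26.7 and 29.2 CPM in WT mice (log2 fold change -0.88 ± 0.11, edgeR adjusted p = 0.000102). On HFD it stood at 18.6, 20.8 and 20.3 CPM in ob/ob fat, against 29.5, 23.8 and 23.6 CPM in WT fat (log2 fold change -0.36 ± 0.11, edgeR adjusted p = 0.0444). The groups did not overlap on either diet, and the ND difference held without any single library, while the HFD one was lost in 7 of the 12 fits that leave out 1 library, namely those without WT HFD replicates 1 or 2, ob/ob HFD replicates 1, 2 or 3, or ob/ob ND replicates 2 or 3. Hypothalamic Hsf1 stood at 18.8, 19.7 and 22 CPM in ob/ob and 30.4, 27.1 and 27.5 CPM in WT mice on ND (log2 fold change -0.49 ± 0.11, edgeR adjusted p = 0.0238), and at 20.3, 22.5 and 25 CPM in ob/ob and 30.7, 35.3 and 29.3 CPM in WT mice on HFD (log2 fold change -0.49 ± 0.11, edgeR adjusted p = 0.0359). Hippocampal Hsf1 stood at 19.3, 20.7 and 17.4 CPM in ob/ob and 28.8, 26.6 and 27.2 CPM in WT mice on ND (log2 fold change -0.52 ± 0.10, edgeR adjusted p = 0.0225), and at 17.3, 20.3 and 19.1 CPM in ob/ob and 26.7, 30.9 and 29.6 CPM in WT mice on HFD (log2 fold change -0.62 ± 0.10, edgeR adjusted p = 0.0184). No ob/ob brain library reached the lowest WT library of its region and diet. The hypothalamic call on ND was lost without ob/ob ND replicate 1 or 2, and the one on HFD without any 1 of the 6 HFD libraries or without ob/ob ND replicate 1 or 2. The hippocampal call was lost on ND without any WT ND replicate or ob/ob ND replicate 1 or 3, and on HFD without WT HFD replicate 2 or any ob/ob HFD replicate.

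In muscle on ND, Hsf1 stood at 14.4, 19.9 and 17.2 CPM in ob/ob mice, against 57.5, 31.9 and 38.5 CPM in WT mice (log2 fold change -1.31 ± 0.37, edgeR adjusted p = 0.0174), a call lost without WT ND replicate 1 or ob/ob ND replicate 1 or 3. Scaled to library totals this difference was -0.76 (edgeR adjusted p = 0.0453). Muscle on HFD gave 36.3, 13 and 13.5 CPM in ob/ob and 31.4, 31.5 and 25.2 CPM in WT mice, with 1 ob/ob library above all WT libraries (log2 fold change -0.49 ± 0.37, edgeR adjusted p = 0.453). In aorta, heart and liver the difference lay between -0.42 and -0.20 and did not pass the test on either diet. Hsf2, another factor of the family that binds the same element and can form mixed trimers with Hsf1, rose in 4 comparisons and fell in 1. Aortic Hsf2 stood at 15.5, 15.2 and 12.9 CPM in ob/ob and 7.58, 8.76 and 7.52 CPM in WT mice on ND (log2 fold change 0.86 ± 0.14, edgeR adjusted p = 0.00106), and at 13, 12.3 and 12.5 CPM in ob/ob and 9.60, 7.40 and 8.84 CPM in WT mice on HFD (log2 fold change 0.55 ± 0.14, edgeR adjusted p = 0.0221). It also rose in fat on ND, to 25, 20.03 and 19.3 CPM in ob/ob against 12.9, 12.9 and 10.7 CPM in WT mice (log2 fold change 0.82 ± 0.18, edgeR adjusted p = 0.00323), and in heart on HFD, to 12.2, 12.4 and 12.6 CPM in ob/ob against 9.63, 9.47 and 10.3 CPM in WT mice (log2 fold change 0.34 ± 0.11, edgeR adjusted p = 0.0403). Liver Hsf2 fell on ND, to 19.3, 17.5 and 14.9 CPM in ob/ob against 33.2, 25.3 and 27.6 CPM in WT mice (log2 fold change -0.74 ± 0.15, edgeR adjusted p = 0.00182). The aortic call on HFD was lost without WT HFD replicate 2 or 3 or ob/ob HFD replicate 1 or 3, and the cardiac one without WT HFD replicate 1 or 2 or any ob/ob HFD replicate.

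Chordc1 fell in more comparisons than any other member, 12 of 14, and its fold change was negative in all 14. Its protein, also called morgana, is a zinc-binding partner of HSP90. In hypothalamus it stood at 26.8, 28.8 and 30.8 CPM in ob/ob mice on ND, against 102, 68.8 and 79.2 CPM in WT mice on ND, and at 24.1, 41.9 and 34.1 CPM in ob/ob mice on HFD, against 75.8, 87.8 and 75.3 CPM in WT mice on HFD. In hippocampus it stood at 23.4, 28.7 and 23.1 CPM in ob/ob and 68.2, 58.9 and 65.2 CPM in WT mice on ND, and at 24.4, 28.1 and 39.7 CPM in ob/ob and 69.6, 56.2 and 63.7 CPM in WT mice on HFD. The ob/ob libraries of both regions were below all WT libraries of the same diet. The difference in hypothalamus was a log2 fold change -1.53 ± 0.18 on ND with edgeR adjusted p = 0.00091, and -1.26 ± 0.18 on HFD with edgeR adjusted p = 0.00516. That in hippocampus was a log2 fold change -1.35 ± 0.17 on ND with edgeR adjusted p = 0.00744, and -1.04 ± 0.16 on HFD with edgeR adjusted p = 0.0184. The hippocampal call on HFD was lost without WT HFD replicate 2 or ob/ob HFD replicate 1 or 2.

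In liver Chordc1 stood at 18.7, 19.2 and 13.6 CPM in ob/ob and 47.4, 38.9 and 45.1 CPM in WT mice on ND, and at 13.6, 22 and 21.4 CPM in ob/ob and 40.3, 44.5 and 43.6 CPM in WT mice on HFD (log2 fold change -1.35 ± 0.17 on ND with edgeR adjusted p = 4.97e-05, and -1.17 ± 0.17 on HFD with edgeR adjusted p = 0.000558). In muscle on ND it stood at 24.7, 33.5 and 18.6 CPM in ob/ob and 76.6, 90.9 and 63.2 CPM in WT mice (log2 fold change -1.59 ± 0.33, edgeR adjusted p = 0.00537), and scaled to library totals the difference was -1.05. Muscle on HFD gave 34.8, 12.7 and 19.9 CPM in ob/ob and 53.8, 49.2 and 59 CPM in WT mice, groups that did not overlap, without passing the test (log2 fold change -1.27 ± 0.33, edgeR adjusted p = 0.154). These are the widest differences of the gene outside the brain. In heart it stood at 24.8, 22 and 20.8 CPM in ob/ob and 32.2, 34 and 33.1 CPM in WT mice on ND, and at 19.6, 22.3 and 23.6 CPM in ob/ob and 33.8, 33.8 and 35.3 CPM in WT mice on HFD (log2 fold change -0.56 ± 0.09 on ND with edgeR adjusted p = 0.001, and -0.65 ± 0.09 on HFD with edgeR adjusted p = 0.000221). In aorta it stood at 25.1, 23.9 and 23.9 CPM in ob/ob and 47.5, 38.1 and 46.3 CPM in WT mice on ND, and at 24.5, 31.3 and 34.1 CPM in ob/ob and 52.2, 55.3 and 44.6 CPM in WT mice on HFD (log2 fold change -0.86 ± 0.14 on ND with edgeR adjusted p = 0.00105, and -0.76 ± 0.14 on HFD with edgeR adjusted p = 0.00443). Fat was the exception on ND, with 27.9, 24.1 and 23 CPM in ob/ob and 29.2, 24.3 and 28 CPM in WT mice (log2 fold change -0.12 ± 0.14, edgeR adjusted p = 0.504). On HFD fat gave 20.6, 26.4 and 30.8 CPM in ob/ob and 45.1, 45.9 and 39.6 CPM in WT mice (log2 fold change -0.75 ± 0.14, edgeR adjusted p = 0.00981), and the WT HFD libraries were the highest of the tissue. Apart from hippocampus on HFD, each of its 12 calls held without any single library.

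Hsph1, the HSP110 that exchanges the nucleotide of HSP70 and holds unfolded protein, fell in 10 of 14 comparisons. Its largest difference was in liver, with 11.8, 12.6 and 8.49 CPM in ob/ob and 75.8, 55.2 and 71.2 CPM in WT mice on ND, and 10.7, 12.2 and 13.6 CPM in ob/ob and 52, 78.5 and 57.8 CPM in WT mice on HFD (log2 fold change -2.62 ± 0.19 on ND with edgeR adjusted p = 9.24e-07, and -2.37 ± 0.18 on HFD with edgeR adjusted p = 9.89e-06). No other member tested in liver had a more negative value on ND, while on HFD Hspa1b stood at -2.42. In hippocampus Hsph1 stood at 213, 202 and 194 CPM in ob/ob and 356, 367 and 334 CPM in WT mice on ND, and at 201, 232 and 221 CPM in ob/ob and 317, 306 and 342 CPM in WT mice on HFD (log2 fold change -0.79 ± 0.08 on ND with edgeR adjusted p = 0.00453, and -0.56 ± 0.08 on HFD with edgeR adjusted p = 0.0133). In hypothalamus it stood at 241, 248.7 and 227 CPM in ob/ob and 382, 342 and 351 CPM in WT mice on ND, and at 205, 234 and 210.4 CPM in ob/ob and 334, 383 and 385 CPM in WT mice on HFD (log2 fold change -0.59 ± 0.08 on ND with edgeR adjusted p = 0.00315, and -0.76 ± 0.08 on HFD with edgeR adjusted p = 0.000667). The groups of each brain region were apart on both diets, and the hippocampal call on HFD was lost without WT HFD replicate 2 or ob/ob HFD replicate 1. In heart Hsph1 stood at 20.5, 23.5 and 15.4 CPM in ob/ob and 39, 30.6 and 34.9 CPM in WT mice on ND, and at 18.5, 23.8 and 21.2 CPM in ob/ob and 34.3, 47.2 and 38.5 CPM in WT mice on HFD (log2 fold change -0.82 ± 0.15 on ND with edgeR adjusted p = 0.00224, and -0.92 ± 0.15 on HFD with edgeR adjusted p = 0.000663). In muscle on ND it stood at 34.6, 32.7 and 35.9 CPM in ob/ob and 75.9, 59.1 and 70.4 CPM in WT mice (log2 fold change -0.99 ± 0.16, edgeR adjusted p = 0.00326), or -0.43 scaled to library totals. In fat on HFD it stood at 40.01, 46.8 and 42.7 CPM in ob/ob and 105, 102 and 81.3 CPM in WT mice, with the groups apart (log2 fold change -1.16 ± 0.14, edgeR adjusted p = 0.0026). In aorta the values were -0.83 on ND and -1.02 on HFD and did not pass the test, with edgeR adjusted p = 0.093 and 0.0677.

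**Figure D3:**
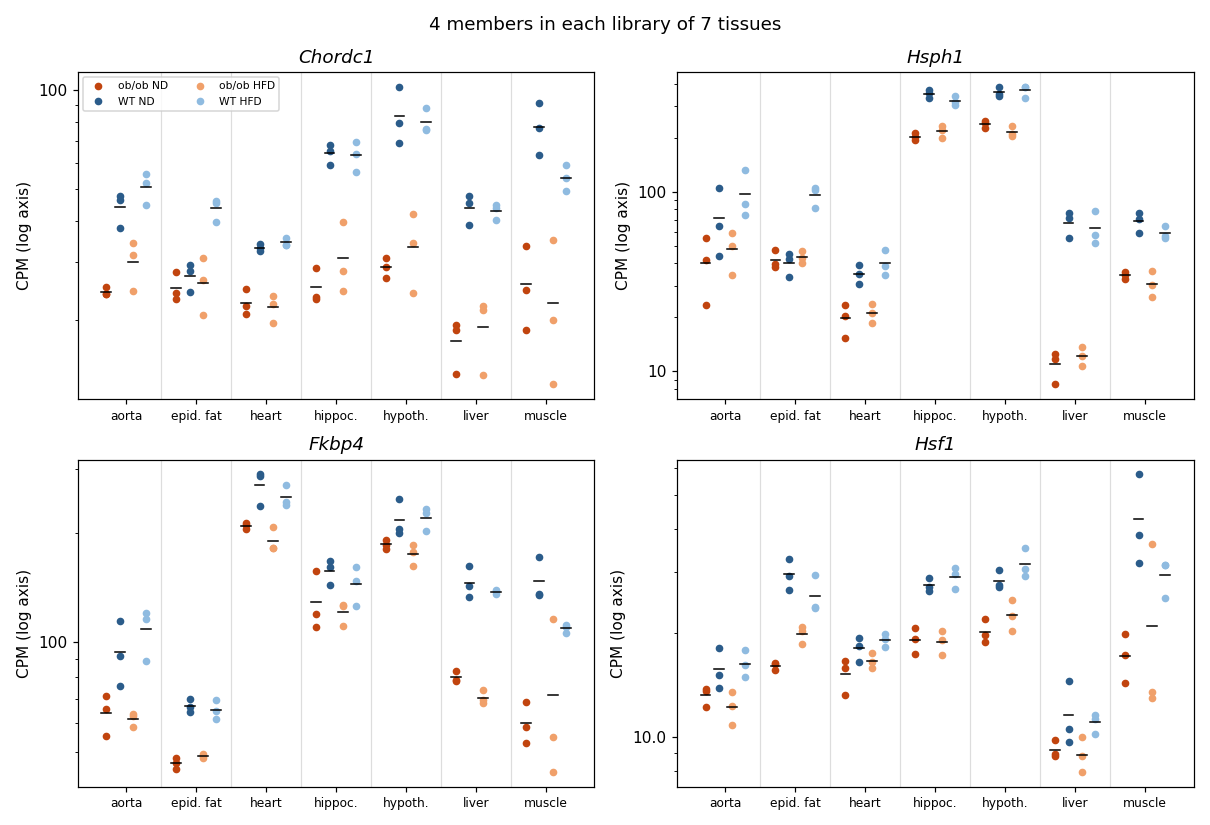
CPM on a log axis of Chordc1, Hsph1, Fkbp4 and Hsf1 in each of the 84 libraries, by tissue, with ob/ob (orange shades) left of WT (blue shades) on ND and then on HFD; short bars are means of 3 mice. Liver Hsph1 lies between 8.49 and 13.6 CPM in the 6 ob/ob libraries and between 52 and 78.5 CPM in the 6 WT libraries, and on ND the genotypes overlap in fat for both Chordc1 and Hsph1.

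The promoters of Chordc1 and Hsph1 are shown because both genes fell in most comparisons and both windows hold a heat shock element of 3 repeats. Promoter windows of 300 bases, 250 before the transcription start and 50 from it, came from RefSeq on GRCm38.p6 and were given for 31 of the 39 members. Heat shock elements were searched as the units GAA and TTC, its reverse complement, in alternation with any 2 bases (NN) between neighbours. A 3-repeat match is GAA, NN, TTC, NN and GAA, or TTC, NN, GAA, NN and TTC, which covers both strands. A 2-repeat match is GAA, NN and TTC, or TTC, NN and GAA, each its own reverse complement, so that each 3-repeat match also holds 2-repeat matches. Of the 31 members, 5 (16.1%) held a 3-repeat match, namely Chordc1, Hsph1, Hspd1, Hspe1 and Dnajb6, beside 0.662% of the 27025 genes in the table. A 2-repeat match stood in 17 members (54.8%), beside 17% of all genes. The windows below run from 150 bases before the start to base 30, 5′ to 3′ on the strand of the gene, and capitals mark the run of 3-repeat matches. In Chordc1 (chr9:18292117-18292296, plus strand) 3 overlapping matches form a run of 23 bases from base -4 to base 19, counted with the start base as 1 and no 0. The run thus spans the RefSeq start of this window. In Hsph1 (chr5:149636286-149636465, minus strand) 1 match of 13 bases lies from base 16 to base 28. Another Hsph1 window (chr5:149636287-149636586) has a start further upstream and also holds 1 match. In the gene annotation of the counts both genes begin further upstream, at chr9:18292125 and chr5:149636376, so these positions hold for the printed windows only.
Chordc1: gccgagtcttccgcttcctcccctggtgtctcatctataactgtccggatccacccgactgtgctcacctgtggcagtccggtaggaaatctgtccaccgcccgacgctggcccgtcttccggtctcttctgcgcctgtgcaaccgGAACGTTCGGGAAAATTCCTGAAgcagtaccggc
Hsph1: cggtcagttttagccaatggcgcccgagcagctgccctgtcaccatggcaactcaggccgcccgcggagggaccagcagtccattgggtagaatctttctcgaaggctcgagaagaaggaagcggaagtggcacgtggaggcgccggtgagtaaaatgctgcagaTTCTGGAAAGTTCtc

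Some other sites are shown for comparison, with 12 bases on each side where the window allows it. They include those of the other 3 members with a 3-repeat match. Of the 12 members with a 2-repeat match only, just Fkbp4, Hspa1b, Hspb8 and Bag3 are shown, picked with their values known. Hspd1 and Hspe1, a head-to-head pair, share 1 site (chr1:55088047-55088088) read on opposite strands, 144 to 127 bases before the start of Hspd1 and 89 to 72 bases before that of Hspe1. Dnajb6 (chr5:29735840-29735876) holds its match 46 to 34 bases before the start. Another window was given for both Hspd1 and Dnajb6, so their positions are counted from the start of the window printed. Fkbp4 (chr6:128438788-128438819) and Hspa1b (chr17:34959323-34959354) each hold a single 2-repeat match before the start, and Hspb8 (chr5:116422843-116422874) and Bag3 (chr7:128523613-128523632) one within the first 50 bases after it.
Hspd1: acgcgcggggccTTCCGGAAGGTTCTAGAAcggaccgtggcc
Hspe1: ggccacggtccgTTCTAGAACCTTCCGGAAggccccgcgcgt
Dnajb6: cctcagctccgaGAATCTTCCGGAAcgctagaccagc
Fkbp4: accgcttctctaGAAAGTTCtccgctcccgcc
Hspa1b: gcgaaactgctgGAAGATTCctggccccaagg
Hspb8: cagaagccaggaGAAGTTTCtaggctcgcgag
Bag3: tggatgggaccaGAAGTTTC
Over the 14 genotype comparisons, the 5 members with a 3-repeat match fell in 28 of 70 tests (40%), the 12 with a 2-repeat match only in 37 of 166 (22.3%) and the 14 with neither in 33 of 196 (16.8%). Chordc1 and Hsph1 made up 22 of the 28, and the other 3 members with a 3-repeat match fell in 6 of 42 tests (14.3%). In the order 3-repeat, 2-repeat only and neither, the members rose in 1, 13 and 14 of these tests. Of all genes tested in the same 14 comparisons, 8.46% were lower and 9.40% higher. The tests come from few genes in the same 12 mice and are not independent. The difference between these groups of members was not tested. The letters describe these windows alone and say nothing of binding.

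Among the other HSP70 genes, Hspa8, the constitutive cytosolic HSP70 (Hsc70), fell in 8 of 14 comparisons. In hippocampus on ND it stood at 1141, 1103 and 1073 CPM in ob/ob and 1415, 1415 and 1467 CPM in WT mice (log2 fold change -0.37 ± 0.07, edgeR adjusted p = 0.0217). Hspa4, an HSP110 relative, stood at 224, 212 and 222 CPM in ob/ob and 287, 288 and 279 CPM in WT mice there (log2 fold change -0.38 ± 0.07, edgeR adjusted p = 0.022). Groups were apart for both genes, yet both calls were lost without any 1 of the WT ND replicates or of ob/ob ND replicates 1 and 3. In liver Hspa8 stood at -0.78 ± 0.16 on ND and -0.92 ± 0.16 on HFD, and it passed the test on both diets. Hspa1a and Hspa1b encode the same stress-inducible HSP70 protein and are near-identical copies, so reads of either may have been split or dropped and their single values are uncertain. Hspa1b stood at 4.61, 4.70 and 2.85 CPM in ob/ob and 13.2, 10.6 and 15.2 CPM in WT fat on ND, and at 3.13, 4.27 and 3.48 CPM in ob/ob and 12.7, 10.3 and 8.49 CPM in WT fat on HFD (log2 fold change -1.68 ± 0.23 on ND with edgeR adjusted p = 0.000192, and -1.53 ± 0.24 on HFD with edgeR adjusted p = 0.00542). Hspa1a stood at 1.48, 1.82 and 1.70 CPM in ob/ob and 5.21, 5.30 and 3.88 CPM in WT fat on HFD (log2 fold change -1.52 ± 0.28, edgeR adjusted p = 0.00876), a call lost without ob/ob HFD replicate 1. In aorta on HFD it stood at 1.67, 2.11 and 2.42 CPM in ob/ob and 4.93, 10.8 and 8.84 CPM in WT mice (log2 fold change -1.98 ± 0.31, edgeR adjusted p = 0.00204). Both copies were low, and no ob/ob library overlapped a WT library in these 4 comparisons.

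Liver Hspa1b was also low and fell in ob/ob mice, with -2.34 ± 0.35 log2 units on ND and -2.42 ± 0.34 on HFD. Hspa2, a testis-rich HSP70 that other tissues also make, was the liver member that rose most, by 1.17 ± 0.37 on ND (edgeR adjusted p = 0.0233) and 1.74 ± 0.38 on HFD (edgeR adjusted p = 0.00682). In liver it is the lowest of the HSP70 genes after Hspa1a, with 1.39 TPM (range 1.28 to 1.59) in WT mice on ND, and its ND call was lost without WT ND replicate 2 or 3 or ob/ob ND replicate 1. Hspa4l, a further HSP110 relative, rose in muscle on ND (0.95 ± 0.32, or 1.51 scaled to library totals), a call lost without WT ND replicate 1 or 3 or ob/ob ND replicate 1 or 3, and fell in aorta on HFD (-0.73 ± 0.16). Hspa9, the mitochondrial HSP70, rose in fat and liver on HFD, by 0.41 ± 0.13 and 0.28 ± 0.09. Of the 12 fits that leave out 1 library, the fat call held only in those without WT ND replicate 3 or ob/ob ND replicate 3, and the liver call only in that without ob/ob HFD replicate 2.

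HSP90 genes fell in 8 of 28 tests, 3 of them in heart and 3 in liver. Hsp90ab1, the constitutive cytosolic HSP90, stood at 694, 709 and 703 CPM in ob/ob hearts on ND, against 937, 881 and 1019 CPM in WT hearts (log2 fold change -0.43 ± 0.09, edgeR adjusted p = 0.00593). The inducible Hsp90aa1 fell in aorta, fat and heart on HFD and in liver on both diets, between -0.41 and -0.88, and rose in muscle on ND by 0.92 ± 0.31, or by 1.48 scaled to library totals. The muscle call was lost without WT ND replicate 1 or 3, WT HFD replicate 1 or 2 or any ob/ob ND replicate. The 6 cardiomyocyte markers summed to 28090 to 28400 CPM in ob/ob and 22280 to 25170 CPM in WT hearts on ND, where 1 of 6 rose, and to 24190 to 28540 CPM in ob/ob and 19740 to 23100 CPM in WT hearts on HFD, where 2 rose and 1 fell. Of the 7 macrophage markers, 2 fell and 0 rose on each diet. They summed to 282 to 402 CPM in ob/ob and 420 to 553 CPM in WT hearts on ND. On HFD they summed to 270 to 401 CPM in ob/ob and 428 to 522 CPM in WT hearts. The part of these markers in the heart values was not tested.

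Co-chaperones of HSP90 and HSP70 fell together in ob/ob liver. On ND 8 of 9 fell and the other, Bag3, rose, beside 17.1% of all genes lower and 19.3% higher. Scaled to library totals 5 fell and 1 rose on ND. On HFD 6 of 9 fell, beside 9.85% of all genes lower and 8.61% higher. Of these 6, St13 did not pass when scaled to library totals (-0.15, edgeR adjusted p = 0.149). Stip1 stood at 41.3, 37.9 and 41 CPM in ob/ob and 93.3, 79.9 and 81.4 CPM in WT livers on ND, and at 37.4, 42.3 and 41.4 CPM in ob/ob and 67.9, 79.4 and 64.1 CPM in WT livers on HFD (log2 fold change -1.08 ± 0.10 on ND with edgeR adjusted p = 4.36e-06, and -0.80 ± 0.10 on HFD with edgeR adjusted p = 0.000188). Fkbp4, an immunophilin that joins steroid receptors to HSP90, stood at 78.4, 83.4 and 78.9 CPM in ob/ob and 143, 133 and 162 CPM in WT livers on ND, and at 69.3, 68 and 73.7 CPM in ob/ob and 139.5, 136 and 138 CPM in WT livers on HFD (log2 fold change -0.86 ± 0.08 on ND with edgeR adjusted p = 6.39e-06, and -0.97 ± 0.08 on HFD with edgeR adjusted p = 1.77e-05). Ahsa1 stood at 50.4, 56 and 54.7 CPM in ob/ob and 89, 79.8 and 89.6 CPM in WT livers on ND (log2 fold change -0.68 ± 0.08, edgeR adjusted p = 4.84e-05). All 3 genes kept ob/ob and WT libraries apart, and their calls held without any single library. The 6 hepatocyte markers summed to 90020 to 97830 CPM in ob/ob and 109100 to 115600 CPM in WT livers on ND, where 4 of 6 fell, and to 66130 to 90290 CPM in ob/ob and 78570 to 88440 CPM in WT livers on HFD, where 1 fell. The 7 macrophage markers summed to 228 to 253 CPM in ob/ob and 77.6 to 291 CPM in WT livers on ND, and 4 rose. The part of these shifts in the liver values was not tested.

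Across tissues, Fkbp4 was below WT in all 14 comparisons and fell in 9. In fat it stood at 46.5, 48.1 and 44.8 CPM in ob/ob and 66.4, 64.2 and 69.9 CPM in WT mice on ND, and at 49.4, 48.8 and 47.9 CPM in ob/ob and 69.3, 64.6 and 61.6 CPM in WT mice on HFD (log2 fold change -0.53 ± 0.07 on ND with edgeR adjusted p = 0.00012, and -0.42 ± 0.07 on HFD with edgeR adjusted p = 0.00602). In muscle on ND it stood at 52.7, 68.3 and 58.4 CPM in ob/ob and 171, 136 and 135 CPM in WT mice (log2 fold change -1.30 ± 0.31, edgeR adjusted p = 0.00889), and scaled to library totals the difference was -0.75 (edgeR adjusted p = 0.0147). The ob/ob libraries were below the WT libraries in both tissues. Ptges3 in heart on HFD stood at 37.4, 44.1 and 36.7 CPM in ob/ob and 53.5, 55.4 and 58.9 CPM in WT mice (log2 fold change -0.51 ± 0.09, edgeR adjusted p = 0.00116). Stip1 in hypothalamus on HFD stood at 201, 212 and 202 CPM in ob/ob and 266, 281 and 271 CPM in WT mice (log2 fold change -0.41 ± 0.08, edgeR adjusted p = 0.0222), a call lost without any 1 of the 6 HFD libraries. St13 (Hip), which holds HSP70 in its client-bound form, went the other way in muscle on ND, with 221, 188 and 211 CPM in ob/ob and 70.7, 88.1 and 90.1 CPM in WT mice (log2 fold change 1.32 ± 0.32, edgeR adjusted p = 0.00907). Bag3, a nucleotide exchange factor that guides clients of HSP70 into autophagy, rose in 5 comparisons and fell in none. Its fold change was negative in 7 of the 14, down to -0.63 on ND and -0.43 on HFD, without passing the test. Its rises were 0.90 ± 0.15 in aorta, 0.72 ± 0.10 in fat, 0.42 ± 0.13 in heart and 0.44 ± 0.09 in liver on ND, and 0.56 ± 0.15 in aorta on HFD. The heart call was lost without WT ND replicate 1 or 2 or ob/ob ND replicate 1 or 2, and the aortic one on HFD without any WT HFD replicate or ob/ob HFD replicate 2 or 3.

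DNAJ genes were mixed, with 14 falls and 11 rises in 84 tests. Dnaja1, which delivers clients to Hspa8, fell in 8 comparisons and rose in none. In heart it stood at 41.6, 39.9 and 35.2 CPM in ob/ob and 61.4, 49.5 and 63.5 CPM in WT mice on ND, and at 32.2, 38.5 and 38.6 CPM in ob/ob and 56, 72.8 and 56.4 CPM in WT mice on HFD (log2 fold change -0.58 ± 0.12 on ND with edgeR adjusted p = 0.00514, and -0.76 ± 0.12 on HFD with edgeR adjusted p = 0.000663). Part of the Dnaja1 exon length, 10.8%, overlaps other genes, so reads there may have been dropped or counted for either gene. Dnajb4 rose in 4 comparisons and fell in none, and in aorta on HFD it stood at 105, 97.2 and 89.1 CPM in ob/ob and 57, 61.7 and 57.5 CPM in WT mice (log2 fold change 0.72 ± 0.12, edgeR adjusted p = 0.00309). The groups were apart for Dnaja1 in heart and for Dnajb4 in aorta. Dnajb1, the main cytosolic Hsp40 and a known target of Hsf1, fell in liver (-0.74 ± 0.12 on ND and -0.72 ± 0.12 on HFD) and rose in muscle on ND (1.16 ± 0.30).

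Small heat shock proteins moved in opposite directions in different tissues. Cryab, alpha-B crystallin, rose in aorta, where it stood at 125, 103 and 137 CPM in ob/ob and 42.4, 44.6 and 39.7 CPM in WT mice on ND, and at 119, 67.4 and 132 CPM in ob/ob and 37.8, 47 and 43.3 CPM in WT mice on HFD (log2 fold change 1.53 ± 0.21 on ND with edgeR adjusted p = 0.000296, and 1.31 ± 0.21 on HFD with edgeR adjusted p = 0.00195). In hypothalamus it fell, with 65.5, 58.2 and 56.7 CPM in ob/ob and 105, 113 and 107 CPM in WT mice on ND, and 60.2, 63 and 64.3 CPM in ob/ob and 112, 129 and 97.7 CPM in WT mice on HFD (log2 fold change -0.85 ± 0.10 on ND with edgeR adjusted p = 0.000928, and -0.86 ± 0.10 on HFD with edgeR adjusted p = 0.000909). The groups were apart in both tissues, and the calls held without any single library. A 17% share of the Cryab exon length overlaps Hspb2, so the counts of these neighbours cannot be fully told apart. In hypothalamus, the 4 oligodendrocyte markers summed to 5731 to 6342 CPM in ob/ob and 7743 to 8765 CPM in WT mice on ND, where all 4 fell, and to 6313 to 7449 CPM in ob/ob and 7161 to 8108 CPM in WT mice on HFD, where none passed. In aorta, the 4 brown fat markers summed to 5733 to 8802 CPM in ob/ob and 10710 to 14900 CPM in WT mice on ND, where 3 fell and 1 rose. The 5 smooth muscle markers summed to 369.9 to 700.0 CPM in ob/ob and 482 to 1277 CPM in WT mice on ND, where 2 fell. Other marker lists moved with genotype in aorta too. Of the macrophage markers 4 of 7 rose on ND and 4 on HFD, though their sums overlapped, at 708 to 1190 CPM in ob/ob and 369 to 1605 CPM in WT mice on ND. On ND all 5 erythroid markers fell (3331 to 6351 CPM in ob/ob and 8907 to 13800 CPM in WT mice), as did all 4 B cell markers (5.43 to 9.33 CPM in ob/ob and 22.6 to 39.3 CPM in WT mice) and 3 of 6 cardiomyocyte markers (1.81 to 71 CPM in ob/ob and 184 to 671 CPM in WT mice). No erythroid, B cell or cardiomyocyte marker passed there on HFD. The part of these cells in the aortic values was not tested.

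Hspb8, which works with Bag3, fell in fat on ND, to 64, 69.4 and 84.7 CPM in ob/ob against 231, 212 and 169.8 CPM in WT mice (log2 fold change -1.49 ± 0.13, edgeR adjusted p = 1.01e-05). On HFD the genotypes overlapped, with 82.7, 71 and 74.7 CPM in ob/ob and 73.1, 68.2 and 71.1 CPM in WT mice (log2 fold change 0.10 ± 0.13, edgeR adjusted p = 0.609). Muscle Hspb8 fell on ND (-1.82 ± 0.57), a call lost without WT ND replicate 1 or ob/ob ND replicate 1 or 3. On HFD Cryab, Hspb6 and Hspb1 rose in ob/ob fat, by 1.44 ± 0.29, 1.12 ± 0.22 and 0.93 ± 0.19, and all 3 calls were lost without ob/ob HFD replicate 1, that of Hspb1 also without WT HFD replicate 2. In fat on HFD the 7 adipocyte markers summed to 13630 to 17690 CPM in ob/ob and 3642 to 10780 CPM in WT mice, where 5 rose. The 7 macrophage markers summed there to 8121 to 11870 CPM in ob/ob and 9385 to 17690 CPM in WT mice, where 2 fell. On ND adipocyte markers summed to 12110 to 17060 CPM in ob/ob and 34270 to 43880 CPM in WT fat (6 fell), and macrophage markers to 6309 to 10850 CPM in ob/ob and 1645 to 1757 CPM in WT fat (7 rose). On ND all 4 T cell markers rose too, while 4 of 6 hepatocyte, 2 of 4 tested smooth muscle, 1 of 5 endothelial and 1 of 5 erythroid markers fell. The part of this change in cell makeup in the fat values was not tested.

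The CCT ring fell in 13 of 84 tests and the mitochondrial chaperonin in 6 of 28. On ND 5 of 6 CCT subunits fell in ob/ob liver, between -0.27 and -0.48, beside 17.1% of all genes lower. Cct2 stood at -0.10 and did not pass. Scaled to library totals only Cct4 passed there, at -0.30. In muscle on ND Cct4, Cct5 and Cct8 fell, with log2 fold changes of -0.64 ± 0.22, -0.70 ± 0.21 and -0.60 ± 0.18, and none of the 3 passed when scaled to library totals, at -0.08, -0.13 and -0.04. Of the fits that leave out 1 library, Cct4 passed there only in those without an ob/ob HFD replicate, Cct5 was lost without WT ND replicate 1 or ob/ob ND replicate 1 or 3, and Cct8 without WT ND replicate 2 or ob/ob ND replicate 1 or 3. Cct4 was below WT in all 14 comparisons and fell in 6. Hspe1, the lid of the mitochondrial chaperonin, stood at 163, 109 and 101 CPM in ob/ob and 278, 253 and 299.6 CPM in WT aortas on ND, with the groups apart (log2 fold change -1.16 ± 0.18, edgeR adjusted p = 0.000704).

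Diet changed members in WT fat and WT liver. In WT fat 18 members rose on HFD and 8 fell, beside 28.6% of all genes higher and 30.3% lower, so that the share of members that rose exceeded the background and the share that fell did not. Hsph1 stood at 105, 102 and 81.3 CPM on HFD and 42.5, 33.4 and 45.2 CPM on ND (log2 fold change 1.25 ± 0.14, edgeR adjusted p = 2.68e-05). Bag3 stood at 107, 88.8 and 86.4 CPM on HFD and 55.5, 52.5 and 53 CPM on ND (log2 fold change 0.81 ± 0.10, edgeR adjusted p = 6.64e-05). Ahsa1 stood at 118, 114 and 93.6 CPM on HFD and 71.9, 68.2 and 66.9 CPM on ND (log2 fold change 0.65 ± 0.09, edgeR adjusted p = 0.0001). The HFD libraries lay above the ND libraries for these 3 genes. Both HSP90 genes, Hspa8 (0.82 ± 0.15), 4 of 6 CCT subunits and 7 of 9 co-chaperones also rose, as did Hsf2, with 22.8, 19.9 and 13.4 CPM on HFD and 12.9, 12.9 and 10.7 CPM on ND (log2 fold change 0.62 ± 0.18, edgeR adjusted p = 0.0115). All 4 small heat shock proteins fell. Hspb8 stood at 73.1, 68.2 and 71.1 CPM on HFD and 231, 212 and 169.8 CPM on ND (log2 fold change -1.53 ± 0.13, edgeR adjusted p = 5.36e-06), and Hspb1, Cryab and Hspb6 had log2 fold changes of -1.25 ± 0.19, -1.15 ± 0.28 and -0.76 ± 0.22. Hspa2 (-1.20 ± 0.25), Hspd1 (-0.50 ± 0.11), Hspa9 (-0.35 ± 0.13) and St13 (-0.54 ± 0.13) fell too. Of the 26 calls, 22 held in each of the 12 fits that leave out 1 library. Hspb6 was lost without WT HFD replicate 1 or 2, and Hspa9 passed only without WT ND replicate 3, ob/ob HFD replicate 1 or ob/ob ND replicate 1 or 3. In the same WT fat the 7 adipocyte markers summed to 3642 to 10780 CPM on HFD and 34270 to 43880 CPM on ND, and all 7 fell, while the 7 macrophage markers summed to 9385 to 17690 CPM on HFD and 1645 to 1757 CPM on ND, and all 7 rose. Other lists moved there as well. All 5 endothelial markers fell (192.5 to 422.5 CPM on HFD and 482.6 to 665.7 CPM on ND). So did 3 of 4 tested smooth muscle markers (82.4 to 190.9 CPM on HFD and 284.3 to 369.3 CPM on ND). All 5 erythroid and all 6 hepatocyte markers fell too, and 3 of 4 T cell markers rose. The part of all these markers in the members' values was not tested.

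**Figure D4:**
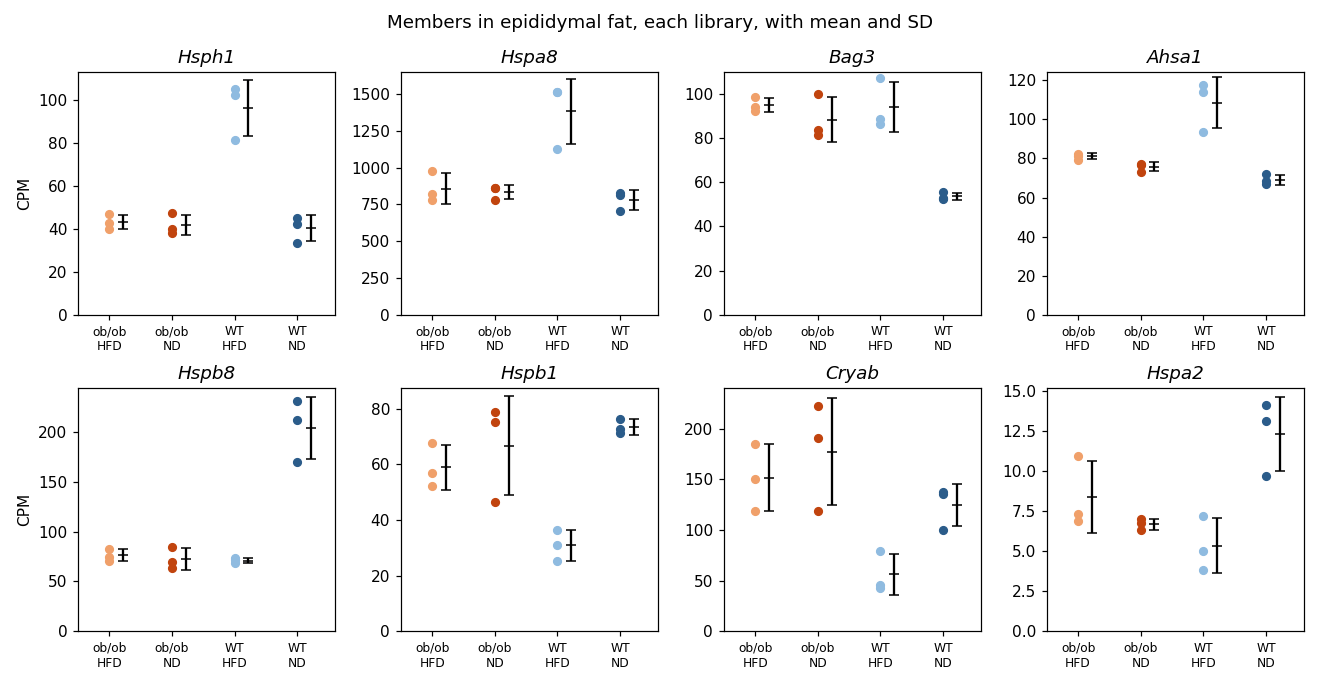
CPM of 8 members in epididymal fat in each library, 3 a group, with the mean and SD beside the points; ob/ob HFD, ob/ob ND, WT HFD and WT ND run from left to right. Hsph1, Hspa8 and Ahsa1 are highest in WT HFD, Bag3 is lowest in WT ND, Hspb8 and Hspa2 are highest in WT ND, and Hspb1 and Cryab are lowest in WT HFD.

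In WT liver 11 members fell on HFD and none rose, beside 12% of all genes higher and 9.87% lower. All 6 CCT subunits were among them. Cct8 stood at 133, 134 and 115 CPM on HFD and 163, 167 and 174 CPM on ND (log2 fold change -0.40 ± 0.08, edgeR adjusted p = 0.00471), and Cct5 at 138, 137 and 156 CPM on HFD and 183, 186 and 177 CPM on ND (log2 fold change -0.34 ± 0.09, edgeR adjusted p = 0.0133). Cct3 stood at 85, 91.2 and 86.3 CPM on HFD and 107, 103 and 112 CPM on ND (log2 fold change -0.29 ± 0.07, edgeR adjusted p = 0.0118), and Cct2 at 87.9, 93.8 and 84.2 CPM on HFD and 113, 109 and 108 CPM on ND (log2 fold change -0.31 ± 0.08, edgeR adjusted p = 0.0165). The HFD libraries were below the ND libraries for these subunits. Hsf2 stood at 20.4, 17.2 and 24.1 CPM on HFD and 33.2, 25.3 and 27.6 CPM on ND (log2 fold change -0.49 ± 0.15, edgeR adjusted p = 0.0322). These falls rest on the scaling. Scaled to library totals, none of the 11 calls passed, and the 6 subunits lay between -0.24 and -0.06. Under that scaling 2 other members passed and both rose, Hspa4 (0.24 ± 0.08, edgeR adjusted p = 0.0418) and Hspb1 (0.73 ± 0.21, edgeR adjusted p = 0.0255). The count was also 6 without WT HFD replicate 1, 7 without WT HFD replicate 2, 3 without WT ND replicate 1 and 4 without WT ND replicate 3. Cct8 alone passed without any single library; Cct3 was lost without WT ND replicate 3, Cct5 without WT HFD replicate 2, Cct2 without WT HFD replicate 1 or WT ND replicate 1, and Hsf2 without any 1 of those 4 libraries.

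In the other 5 WT tissues edgeR called no member for diet. At an unadjusted p under 0.05 there were 6 members in aorta, 1 in hypothalamus, 1 in muscle and 0 in heart and hippocampus, and DESeq2 called 3 in aorta and 0 in the other 4 tissues. The background was 4.21% of all genes in aorta (2.13% higher and 2.07% lower), 0.256% in heart and 0% in hippocampus, hypothalamus and muscle. Without WT ND replicate 1 edgeR called 5 members in aorta. In ob/ob mice, HFD against ND gave 1 call in 7 tissues. It was Bag3 in liver, at 30.9, 33 and 29.8 CPM on HFD and 41.1, 47.1 and 40.1 CPM on ND (log2 fold change -0.45 ± 0.09, edgeR adjusted p = 0.03), beside 0.913% of all genes called there. The groups were apart, but the call was lost in 7 of the 12 fits that leave out 1 library, those without WT HFD replicate 1 or any ob/ob library, and was also lost when scaled to library totals (adjusted p = 0.101). In the other 6 tissues edgeR and DESeq2 called no member in ob/ob mice, and 1 member in aorta, 3 in fat, 1 in heart, 2 in hypothalamus and 0 in hippocampus and muscle had an unadjusted p under 0.05. The background there was 0.0219% of all genes in heart (0.00731% higher and 0.0146% lower) and 0% in the other 5 tissues.

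Whether diet acted differently by genotype was tested as an interaction, in which the log2 change with HFD in WT is subtracted from the one in ob/ob. In fat it passed for 15 members, 5 with a positive and 10 with a negative difference, beside 19.4% of all genes positive and 20.7% negative, and scaled to library totals the division was 4 and 14. Among the largest were Hspb8 (1.60 ± 0.19, edgeR adjusted p = 0.000117) and Hsph1 (-1.21 ± 0.19, edgeR adjusted p = 0.000808). In ob/ob fat Hspb8 stood at 82.7, 71 and 74.7 CPM on HFD and 64, 69.4 and 84.7 CPM on ND, and in WT fat at 73.1, 68.2 and 71.1 CPM on HFD and 231, 212 and 169.8 CPM on ND. In ob/ob fat Hsph1 stood at 40.01, 46.8 and 42.7 CPM on HFD and 47.4, 38.2 and 39.9 CPM on ND, against the WT values above. For both genes the WT libraries were apart by diet and the ob/ob libraries overlapped. Bag3 (-0.70 ± 0.14, edgeR adjusted p = 0.00308) and Ahsa1 (-0.55 ± 0.12, edgeR adjusted p = 0.00509) also differed. Of the 15 calls, 11 held in each fit that leaves out 1 library, and the count was 24 without WT HFD replicate 3. Hsf1, with 0.51 ± 0.16 (edgeR adjusted p = 0.0231), was lost in 7 of these fits, without WT HFD replicate 2 or 3, WT ND replicate 1, ob/ob HFD replicate 2 or 3 or ob/ob ND replicate 1 or 2. The 7 adipocyte and the 7 macrophage markers each passed the same test, adipocyte markers with a positive and macrophage markers with a negative difference. All 5 erythroid and all 6 hepatocyte markers passed it too, with a positive difference. The part of all these markers was not tested.

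In liver the interaction passed for Bag3 alone (-0.47 ± 0.13, edgeR adjusted p = 0.0433), beside 6.17% of all genes. WT livers held 31, 30.9 and 33.7 CPM of Bag3 on HFD and 29.7, 30.2 and 34.4 CPM on ND. The call was lost in 9 of the 12 fits that leave out 1 library, and held without WT ND replicate 3, ob/ob HFD replicate 2 or ob/ob ND replicate 3. In the other 5 tissues edgeR and DESeq2 called no member, and 2 members in aorta, 1 in heart and 0 in hippocampus, hypothalamus and muscle had an unadjusted p under 0.05. The background was 0.427% of all genes in aorta (0.169% positive and 0.257% negative) and 0% in each of heart, hippocampus, hypothalamus and muscle. Without WT ND replicate 1, edgeR called 1 member in aorta. The genotype and diet comparisons share their libraries, so their values are not independent of each other.

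Levels across tissues were compared as TPM, which divides by gene length, over the 3 WT libraries on ND. The range over the 3 libraries follows each median. Cryab was highest in heart, at 1484 TPM (range 1303 to 1490), next in muscle, at 620.5 TPM (range 456 to 899), and lowest in liver, at 2.49 TPM (range 2.42 to 3.12). Hsp90ab1 reached 1547 TPM (range 1500 to 1605) in hippocampus and 1415 TPM (range 1411 to 2074) in hypothalamus, with overlapping ranges, and was lowest in aorta, at 469.6 TPM (range 442 to 683). Hsp90aa1 reached 1032 TPM (range 934 to 1074) in hypothalamus and was lowest in muscle, at 32.5 TPM (range 21.4 to 34.9). Hspa8 stood at 1036 TPM (range 988 to 1474) in hypothalamus and 369.9 TPM (range 333 to 439) in muscle. The TPM of these 3 abundant cytosolic chaperones was highest in brain, but on CPM scaled by TMM over all 84 libraries and divided by length, Hsp90ab1 was highest in heart and Hspa8 in aorta.

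Hsph1 reached 151 TPM (range 142 to 155) in hippocampus and was lowest in heart, at 8.72 TPM (range 7.86 to 10.03). Hspa2 was highest in hippocampus, at 53.8 TPM (range 48.1 to 56.2), Stip1 in hypothalamus, at 379 TPM (range 360.3 to 381), and St13 in fat, at 279 TPM (range 237 to 284). Hspb8 was highest in muscle, at 514 TPM (range 381 to 760.2), and its range there overlapped that in heart, at 396 TPM (range 394 to 401). Chordc1 had 29.6 TPM (range 26.1 to 47.4) in hypothalamus and 8.04 TPM (range 8.03 to 8.47) in heart. Hsf1 differed little at the top, with 41.7 TPM (range 34.1 to 44) in fat and 41.5 TPM (range 40.4 to 44) in hippocampus, and was lowest in liver, at 9.67 TPM (range 9.33 to 14.2). By TPM 27 of the 39 members were highest in a brain region, 19 in hypothalamus and 8 in hippocampus, but on the TMM scale divided by length 8 were. The top tissue was the same on both scales for the genes named in this paragraph other than Hsf1 and Chordc1.

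**Figure D5:**
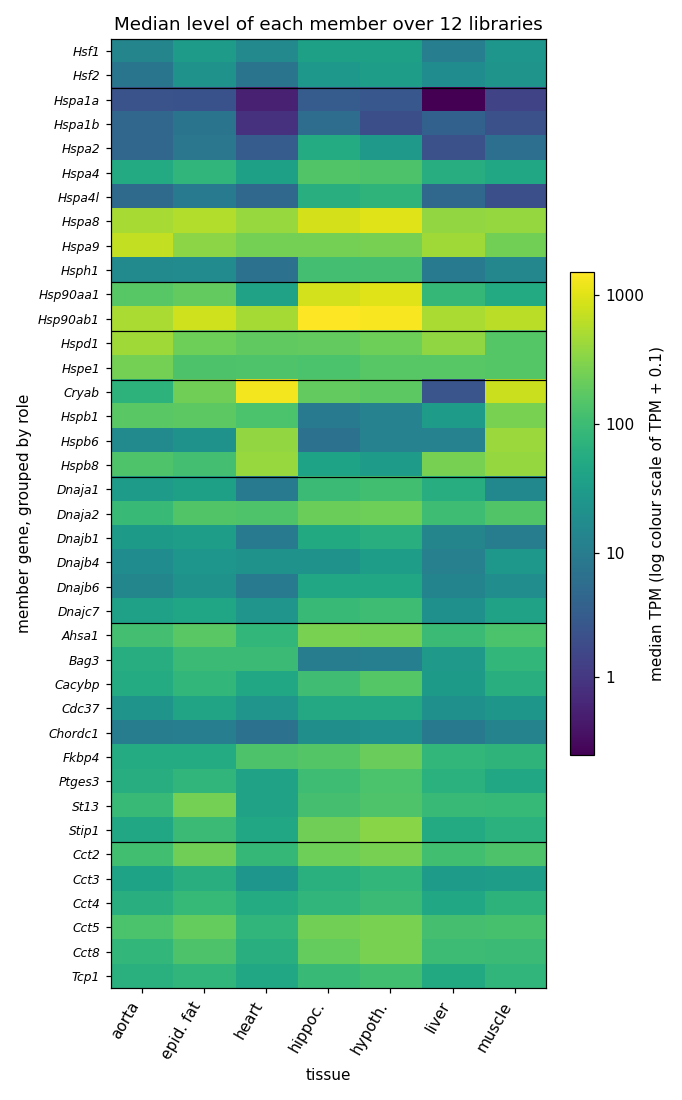
Median TPM of each member over the 12 libraries of a tissue, on a log colour scale. Cryab in heart, and Hsp90ab1, Hsp90aa1 and Hspa8 in both brain regions, are the brightest cells, and Hspa1a in liver is the darkest.

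The summed TPM of 17 members known to be induced by heat (Hsph1, Hspa1a, Hspa1b, Hsp90aa1, Dnajb1, Hspa8, Dnaja1, Bag3, Chordc1, Stip1, Fkbp4, Ahsa1, Cacybp, Hspd1, Hspe1, Dnajb4 and Hspb1) is given as a description of the libraries. This list was chosen with earlier results of these data known, so the sums are no independent support for a genotype difference. Abundant genes weigh most in them. In WT hippocampus on ND, Hspa8 had a median of 1014 TPM and Hsp90aa1 of 891 TPM. In heart the sum was 1181 to 1330 TPM in ob/ob and 1432 to 1713 TPM in WT mice on ND, and 1216 to 1258 TPM in ob/ob and 1434 to 1726 TPM in WT mice on HFD. In hippocampus it was 2697 to 3040 TPM in ob/ob and 3451 to 3496 TPM in WT mice on ND, and 2926 to 3063 TPM in ob/ob and 3144 to 3457 TPM in WT mice on HFD. In liver it was 1201 to 1390 TPM in ob/ob and 1420 to 1686 TPM in WT mice on ND, and 1182 to 1371 TPM in ob/ob and 1425 to 1844 TPM in WT mice on HFD. In these 3 tissues each ob/ob library was below each WT library of the same diet. Muscle ran the other way on ND, at 1499 to 1980 TPM in ob/ob and 1320 to 1443 TPM in WT mice. That direction depends on the scaling. TPM sets each library to a fixed sum, and scaling to totals moved the muscle median by 0.56 relative to TMM. On TMM, Ahsa1, Cacybp, Chordc1, Fkbp4, Hspa8, Hspe1, Hsph1 and Stip1 fell there, and Dnajb1 and Hsp90aa1 rose. Fat on HFD had 1799 to 1894 TPM in ob/ob and 2233 to 2290 TPM in WT mice, and hypothalamus on HFD had 3222 to 3415 TPM in ob/ob and 3707 to 4183 TPM in WT mice. In aorta on both diets, in hypothalamus and fat on ND and in muscle on HFD the libraries of the genotypes overlapped.

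A further 57 chaperone genes outside the network, among them other DNAJ and BAG proteins, prefoldin subunits and Cct6a, Cct6b and Cct7, were tested in the same fits. In liver on ND 8 of 51 tested rose in ob/ob mice and 12 fell, with a median log2 fold change of -0.12. Beside this 19.3% of all genes were higher and 17.1% lower. On HFD 2 rose and 9 fell, beside 8.61% of all genes higher and 9.85% lower. In heart on HFD 4 of 55 rose and 3 fell, beside 8.82% of all genes higher and 8.36% lower. In hypothalamus on HFD 1 of 52 rose and 3 fell, beside 0.853% higher and 1.28% lower. In hippocampus on ND 3 of 52 rose and 1 fell, beside 1.63% higher and 1.85% lower. In muscle on ND 7 of 56 rose and 24 fell, with a median of -0.54, beside 26.6% of all genes higher and 18.3% lower. Of the 39 members 4 rose and 15 fell there, with a median of -0.58, so that fall was not particular to the members. In WT fat 11 of 54 rose on HFD and 21 fell, with a median of -0.17, where the median of the 39 members was 0.19. The background in WT fat was 28.6% of all genes higher and 30.3% lower. Other comparisons of this list are not given here, and the difference between the lists was not tested.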

How the data were processed

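Total RNA was extracted with TRIzol, made into TruSeq libraries and read on a NextSeq, per the labels' protocols. The deposited table holds raw fragment counts per gene, made by the authors with featureCounts 1.5.1 over exons of paired reads, with no strand or multi-mapping option, per the file headers; the submitters' processing notes name featureCounts 1.5.0-p2, Trimmomatic 0.36, HISAT2 2.0.5 and GRCm38. Without strand, reads of overlapping genes cannot be told apart, and reads that fit several near-identical genes may be dropped. Gene names matched 49326 of 49671 IDs. In 6 titles HDF was read as HFD. Blood, body composition and other phenotype tables were not used here.

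Each tissue was fitted apart with edgeR 4.0.16 in R 4.3.3 (4 groups of 3, filterByExpr with a smallest count of 10 and total of 15, TMM, quasi-likelihood test, Benjamini-Hochberg adjustment over all tested genes, threshold 0.05). Standard errors were taken from the F statistic. The fits were tested on simulated data. DESeq2 1.42.0, edgeR on DESeq2's size factors, a fit of unfiltered genes, a replicate block, fits of the 6 libraries compared alone and fits leaving out each library served as alternatives; scaling to library totals and leaving out 2 muscle libraries were added after the data were seen. Values were named for up to 4 members past the threshold with the smallest p in each tissue and comparison, and for Hsf1 and Hsf2; other members named were chosen after their values were seen. The members and all lists were chosen with earlier results of these data known. Nothing in the labels says how the mice were bred or housed. The p-values set a difference against the spread between mice within groups, estimated together over the 4 groups of 3 of a tissue. No 2 libraries of a group agreed within sampling noise.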

Additional observations from a re-analysis of the deposited data

Results flagged for a closer look

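The diet effect differed between genotypes, by the interaction test of edgeR, for 15 members in epididymal fat and 1 member in liver. These are 38.5% of the members tested in fat, beside 40.1% of all genes, and 2.63% in liver, beside 6.17%, so neither count is a result about the members. Each value is the log2 change with HFD in ob/ob fat or liver after subtraction of the change in WT. In fat it was positive for Hspb8 (1.60), Hspa2 (1.53), Hspb1 (1.07), Hspb6 (0.91) and Hsf1 (0.51). It was negative for Hsph1 (-1.21), Cacybp (-0.87), Hspa8 (-0.79), Bag3 (-0.70), Chordc1 (-0.62), Cct3 (-0.60), Cct5 (-0.58), Ahsa1 (-0.55), Hsp90aa1 (-0.52) and Hspa4 (-0.51). In ob/ob fat edgeR called none of the 39 members for diet, DESeq2 called none either, and 3 had an unadjusted p under 0.05. In liver the value was -0.47 for Bag3.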

How the results depend on the processing

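Of 76 calls of named members, none took the opposite sign, 55 held in all fits that leave out 1 library and 52 under all alternatives. Over all 221 member calls, named or not, 121 held in all fits that leave out 1 library, with 4 of 17 in fat on HFD, 9 of 21 in heart on HFD, 6 of 19 in muscle on ND and 1 of 11 for diet in WT liver. DESeq2 and edgeR with DESeq2 size factors each kept 75, scaling to library totals 69, no filter 70 and the 6 libraries alone 58 of 70. Counts of members called moved by over 1.5 times as follows, and the cause was not tested. With DESeq2 the count was 3 for diet in WT aorta, 6 and 8 for genotype in hippocampus on HFD and ND, 9 in hypothalamus on HFD, 2 in muscle on HFD and 2 for the liver interaction, and with its size factors 0 for that interaction. With no filter it was 2 for diet in WT aorta, 1 for the aortic interaction, 8 for genotype in hypothalamus on HFD, 6 for diet in WT liver, 2 for diet in ob/ob liver, 3 for the liver interaction and 11 in muscle on ND, where 4 rose and 7 fell. With the 6 libraries alone it was 0 and 1 in hippocampus on HFD and ND, 9 and 2 in hypothalamus on HFD and ND, 0 for diet in ob/ob liver and 1 for diet in WT muscle. Scaled to library totals it was 2 for diet in WT liver, both higher on HFD where the 11 were lower, and 0 in ob/ob liver. Muscle on ND without the libraries lowest and highest in fibre markers gave 15, 2 higher and 13 lower. On TMM-scaled CPM per length the number of members highest in a tissue was 1 in fat, 10 in heart, 4 in hippocampus, 4 in hypothalamus, 10 in liver and 4 in muscle.

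Leaving out 1 library gave 9 to 18 and 9 to 15 calls for genotype in aorta on HFD and ND, 4 to 24 and 10 to 18 in fat, 12 to 21 and 6 to 10 in heart, 0 to 3 and 2 to 7 in hippocampus, 3 to 13 and 3 to 10 in hypothalamus, 12 to 14 and 21 to 26 in liver and 0 to 18 and 6 to 26 in muscle. For diet in WT mice it gave 0 to 5 in aorta, 22 to 27 in fat, 3 to 12 in liver and 0 to 1 in muscle, for diet in ob/ob liver 0 to 1, and for the interaction 0 to 1 in aorta, 12 to 24 in fat and 0 to 1 in liver.

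Replicate numbers did not pair the samples: over 18 pairs a tissue, libraries of one number had correlations of -0.67 to 0.477 about their group means. With the number as a replicate block 66 of 76 named calls held, and the count was 1 for diet in WT aorta, 0 and 2 for genotype in hippocampus on HFD and ND, 0 for diet in ob/ob liver and 0 for the liver interaction. In simulated libraries of the ob/ob against WT comparison on ND, the muscle fit recovered 12.4% of changes of 2-fold, against 51.5% to 78.6% in the other tissues. The simulation changed only 197 of 15035 muscle genes, whereas 45% of all genes were called in the real comparison. With so few changed genes the adjustment is stricter, so the simulation does not give the share of real changes recovered.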

Other observations

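The 18 chaperones of the endoplasmic reticulum on a separate list, which fold secreted and membrane proteins, moved with diet in WT fat. There 15 of 18 rose on HFD and 2 fell, with a median log2 fold change of 0.78, beside 28.6% of all genes higher and 30.3% lower. Among them Hspa5 (BiP), the HSP70 of that compartment, rose by 0.99 ± 0.15 (edgeR adjusted p = 0.000206) and Sdf2l1, a partner of DNAJ proteins there, by 1.93 ± 0.21 (edgeR adjusted p = 2.20e-05). In ob/ob fat edgeR called none for diet. In fat on HFD 1 rose in ob/ob mice and 11 fell, beside 10.1% of all genes higher and 7.5% lower. In ob/ob muscle on ND 12 rose and none fell, beside 26.6% of all genes higher and 18.3% lower. In hypothalamus none rose and 5 fell on ND and 8 on HFD, where 2.98% and 1.28% of all genes were lower. In heart none rose and 5 fell on ND and 8 on HFD, where 6.48% and 8.36% of all genes were lower. The cell markers given beside the fat and muscle members moved with these groups too, and their part was not tested.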
